A study of Homo sapiens with 3 samples.

Results

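The 34 genes described here encode lysosomal hydrolases, lysosomal membrane proteins, subunits of the proton pump that acidifies the organelle, and the transcription factor TFEB. They were chosen by symbol with FPKM differences of these same 3 libraries already known, those of GPNMB and CTSD among them, so the differences given below are a description and support no further statement. All 34 symbols were among the 23277 in the files, and 33 had a mean of at least 1 FPKM (a fragment count scaled for transcript length and sequencing depth) over the 3 libraries; the exception, the sialidase gene NEU1, was listed at 0 in all 3. The cells were CaSki, an established line from an epidermoid carcinoma of the cervix. The empty vector group carried the retroviral vector pMSCV without an insert and received an siRNA against GFP as control. The NANOG group carried FLAG-tagged NANOG, a homeobox transcription factor of pluripotent cells, in the same vector and received the same GFP siRNA. The third group carried FLAG-NANOG and received an siRNA against HDAC1, a histone deacetylase. All 3 groups thus carried a pMSCV vector and received an siRNA, and the labels do not say whether the cells were clones or pools. With a single library in each group, the differences have no replicate check, error or test.

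Lysosomes are acidic organelles that break down proteins, glycans, lipids and nucleic acids delivered by endocytosis and autophagy. Most of their soluble enzymes are tagged with mannose 6-phosphate in the Golgi and carried by sorting receptors, and the V-ATPase pumps in the protons that the enzymes need. TFEB and its relatives TFE3 and MITF bind E-box elements, known as CLEAR elements, in the promoters of many lysosomal genes. Secreted cathepsins are widely studied in carcinomas because they can cut extracellular matrix.

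The promoters of 5 of the genes are shown because they set the genes with the largest differences (GPNMB, CTSD and CTSL1) beside a lysosomal membrane protein gene and a lysosomal channel gene, LAMP1 and MCOLN1, with several E-boxes. Each is the stretch of 250 bases before the annotated start in RefSeq, assembly GRCh38.p14, written 5′ to 3′ on the gene's strand; the FPKM values themselves were made on hg19. Capitals mark the E-box CACGTG, or in GPNMB the M-box TCATGTG as it reads on the other strand, CACATGA. The M-box was added to the search after the values were known. The stretches lie at chr7:23246525-23246774 on the plus strand for GPNMB, chr11:1763928-1764177 on the minus strand for CTSD, chr9:87725869-87726118 on the plus strand for CTSL1 (now named CTSL), chr13:113296989-113297238 on the plus strand for LAMP1 and chr19:7522374-7522623 on the plus strand for MCOLN1.
GPNMB: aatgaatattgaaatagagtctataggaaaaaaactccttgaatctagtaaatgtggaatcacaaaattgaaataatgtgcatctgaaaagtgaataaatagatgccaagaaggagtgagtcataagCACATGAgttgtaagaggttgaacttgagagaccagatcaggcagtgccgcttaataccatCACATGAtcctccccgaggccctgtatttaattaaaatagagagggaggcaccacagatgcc
CTSD: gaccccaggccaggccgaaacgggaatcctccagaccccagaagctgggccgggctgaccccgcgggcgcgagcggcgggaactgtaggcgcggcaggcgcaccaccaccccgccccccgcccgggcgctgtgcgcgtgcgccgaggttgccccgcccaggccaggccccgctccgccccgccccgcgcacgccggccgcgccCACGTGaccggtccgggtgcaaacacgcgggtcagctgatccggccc
CTSL1: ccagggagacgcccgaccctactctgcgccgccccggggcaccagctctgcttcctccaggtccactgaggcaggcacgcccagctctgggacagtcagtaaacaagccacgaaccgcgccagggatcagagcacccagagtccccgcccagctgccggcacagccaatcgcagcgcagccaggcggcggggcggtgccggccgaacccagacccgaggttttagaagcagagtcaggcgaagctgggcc
LAMP1: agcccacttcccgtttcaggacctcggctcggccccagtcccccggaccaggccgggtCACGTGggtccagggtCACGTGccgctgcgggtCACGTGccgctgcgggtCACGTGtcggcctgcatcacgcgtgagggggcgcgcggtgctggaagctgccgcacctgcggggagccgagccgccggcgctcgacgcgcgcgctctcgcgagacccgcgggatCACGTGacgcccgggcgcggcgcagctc
MCOLN1: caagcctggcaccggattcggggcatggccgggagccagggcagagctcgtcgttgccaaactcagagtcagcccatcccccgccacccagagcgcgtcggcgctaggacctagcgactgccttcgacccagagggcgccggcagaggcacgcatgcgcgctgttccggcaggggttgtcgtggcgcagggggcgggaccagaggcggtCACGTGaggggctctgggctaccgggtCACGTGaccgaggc

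Within 250 bases before and 50 bases after the start, LAMP1 held 6 E-boxes, the last of which begins at the final base printed. MCOLN1 held 2 and CTSD 1, which begins 47 bases before the start. The GPNMB window held 0 E-boxes and 2 M-boxes, beginning 123 and 62 bases before the start. CTSL1 held neither. Promoters were matched for 26 of the 34 genes; the other 8 were CTSB, ASAH1, PSAP, ARSA, HEXA, LAMP2, ATP6V1A and ATP6V1H. Searched on both strands, CACGTG lay in at least 1 window of 9 of these 26 genes (CTSA, CTSD, GAA, NEU1, LAMP1, CD63, CLN3, MCOLN1 and ATP6V0D1), against 8.77% of all 27305 genes in the table. Its extension TCACGTG, which overlaps it, lay in 8 of the 26, against 4.49% of all genes. TCATGTG lay in 6 of the 26 (CTSA, TPP1, PPT1, CD63, GPNMB and SCARB2), against 3.59% of all genes. TPP1 held 2, as did GPNMB. CD63 was matched at 8 starts, TFEB at 3, and NPC2 and CLN3 at 2 each, which gives such genes more chances of a match. A match describes the letters of the window and not a bound site.

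Absolute depth is unknown, since the files hold no counts. Of 2156 genes with values above 0 and under 0.3 FPKM in all 3 libraries, 419 had a ratio of NANOG over empty vector between 0.9 and 1.1, and 318 of these lay in the bin at 0.981 (bins of 0.002). For HDAC1 siRNA over GFP siRNA in NANOG cells, 441 ratios lay in this range, of which 184 lay in the bin at 0.999. NANOG was at 0.0357 FPKM in the empty vector library, 298 FPKM in the NANOG library and 325 FPKM in the HDAC1 siRNA library. HDAC1 stood at 19.02, 108 and 12.8 FPKM in these libraries, so that its low value in the HDAC1 siRNA library lies nearer to that of the empty vector library than to that of the NANOG library. All 10 markers of squamous and simple epithelium (KRT5, KRT14, KRT17, KRT6A, KRT8, KRT18, KRT19, TP63, CDH1 and EPCAM) were measured, with TP63 lowest at 0.79 to 1.29 FPKM. They summed to 5516, 5745 and 4872 FPKM, with 4 higher and 6 lower with NANOG. The keratins KRT5 and KRT6A were highest in the NANOG library, by 0.79 and 0.73 over empty vector. With HDAC1 siRNA against GFP siRNA they differed by -0.83 and -0.68. KRT8 and KRT18 were also highest in the NANOG library, by 0.58 and 0.51, and differed by -0.45 and -0.05 with HDAC1 siRNA. The 6 lower markers differed with NANOG by between -0.25 (EPCAM) and -0.57 (KRT14 and KRT17). The part of these marker differences in the values below was not tested.

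The lysosomal genes covered a wide range of levels, which is shown per gene and library in the plot of levels. CD63, a tetraspanin of late endosomes and lysosomes, was at 369, 332 and 348 FPKM in empty vector, NANOG and HDAC1 siRNA cells. The same order of libraries is kept in all values below. PSAP, the precursor of the saposins that help sphingolipid hydrolases, was at 359, 349 and 292 FPKM. CD63 was the highest of the genes in the empty vector and HDAC1 siRNA libraries, and PSAP in the NANOG library. At the lower end, MCOLN1, a calcium channel of the lysosomal membrane, was at 4.11, 4.72 and 4.49 FPKM. TFEB was lowest of the 33 at 1.52, 0.872 and 1.68 FPKM.

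**Figure D1:**
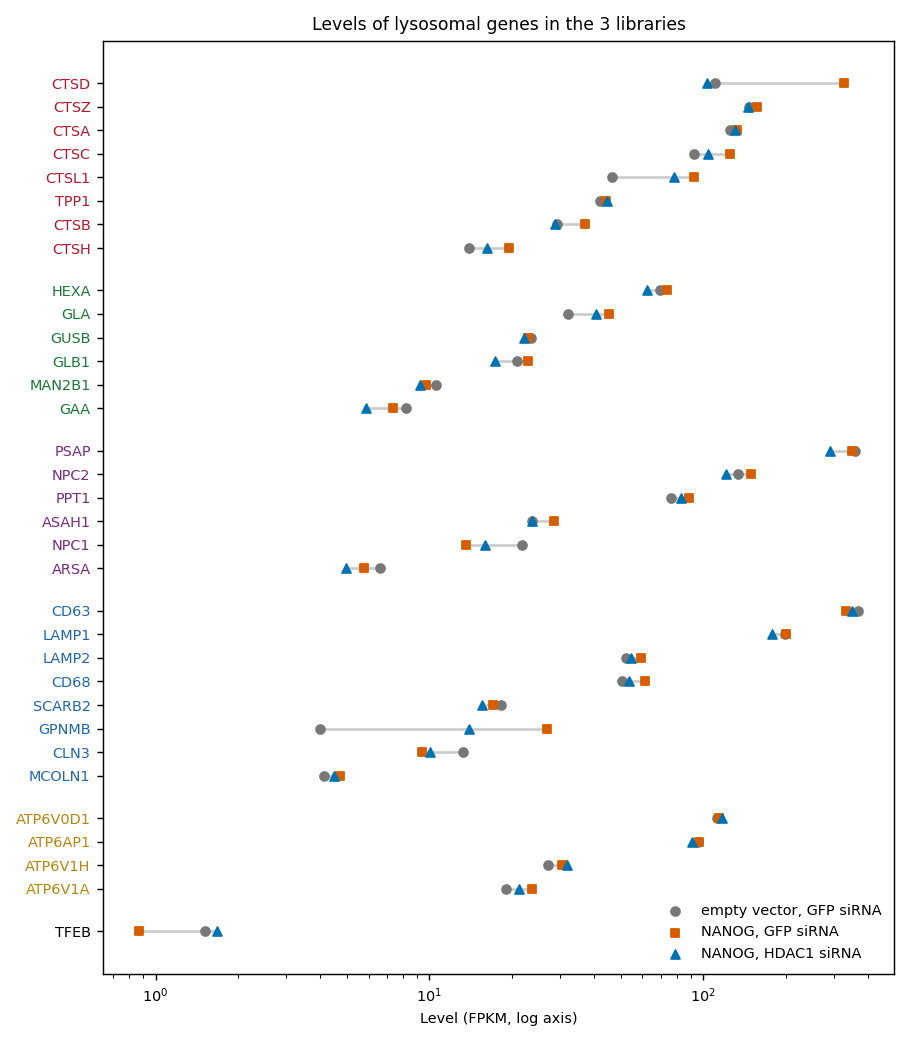
Level of each of the 33 measured lysosomal genes (FPKM, log axis) in the 3 libraries, ordered by role and then by mean level; a grey line joins the lowest and highest library, gene names are coloured by role, and each point is 1 library. CTSD stands apart in the NANOG library at 327 FPKM, and GPNMB spreads from 4.003 to 27.0 FPKM, while most other genes keep their 3 points close together.

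The first comparison, NANOG against empty vector with GFP siRNA in both, asked which genes differ when NANOG is overexpressed. GPNMB and CTSD were at least 2-fold higher with NANOG and no lysosomal gene was at least 2-fold lower, where 2-fold means a difference of 1 in log2(FPKM + 1), a scale that understates the change of low genes. Among all 11401 genes kept, 0.675% lay that far above and 1.22% that far below. At 1.5-fold, 3 lysosomal genes were higher (GPNMB, CTSD and CTSL1) and 1 was lower (NPC1), against 3.47% and 5.26% of all genes. The direction was higher for 23 of the 33 genes and lower for 10, where 49.2% of all genes were higher and 50.8% lower. Fewer cells of a kind and less RNA per cell cannot be told apart in such bulk values. The median difference of the 33 genes was 0.10, beside -0.01 for all genes. Rescaling each library to TPM, a sum that includes small RNAs, left 20 genes higher and 13 lower. The median was then 0.05 for the lysosomal genes and -0.05 for all genes.

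The second comparison, HDAC1 siRNA against GFP siRNA in NANOG cells, asked which genes differ when an siRNA against HDAC1 is given. CTSD was at least 2-fold lower with HDAC1 siRNA, and 0 of the 33 genes lay 2-fold or more above the GFP siRNA library. Over all genes, 0.211% lay that far below and 0.0877% that far above. GPNMB joined CTSD at 1.5-fold lower, which held for 1.43% of all genes, and 0 genes were 1.5-fold higher, against 0.675%. The direction was lower for 26 of the 33 genes, and higher for 7, where 46.6% of all genes were lower and 53.4% higher. The median was -0.15, beside 0.01 for all genes. Under TPM that direction was not kept, with 14 genes lower and 19 higher. The median was then 0.02 for the lysosomal genes and 0.18 for all genes. TPM without small RNAs, a scaling added after seeing the data, gave 24 lower and 9 higher, with medians of -0.10 and 0.07. The NANOG library is a side of both comparisons, so a high value in it alone makes a gene higher in the first and lower in the second.

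The third comparison sets NANOG cells with HDAC1 siRNA against empty vector cells and leaves out the NANOG library with GFP siRNA. GPNMB alone was at least 2-fold higher and 0 genes were at least 2-fold lower, beside 0.368% and 0.824% of all genes. CTSL1 was added at 1.5-fold higher, which 1.78% of all genes reached, and 0 of the 33 were 1.5-fold lower, against 3.46%. The genes were divided at 15 higher and 18 lower, where 49.8% of all genes were higher and 50.2% lower. The median was -0.02, beside -0.00 for all genes, and under TPM 22 were higher and 11 lower with medians of 0.12 and 0.13.

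**Figure D2:**
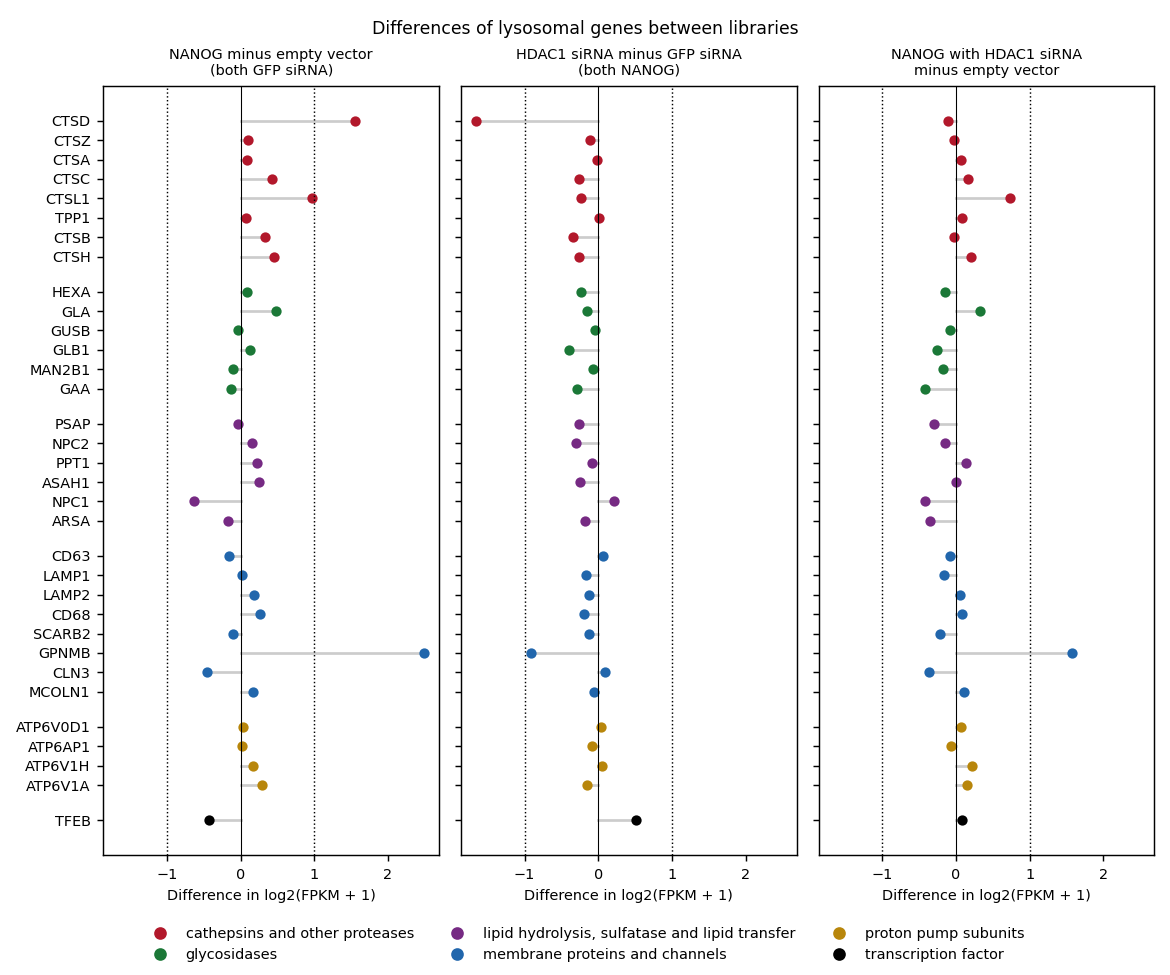
Difference in log2(FPKM + 1) of each of the 33 genes in the 3 comparisons, coloured by role; dotted lines mark 2-fold (a difference of 1) and each point is a difference of 2 single libraries. GPNMB (2.48) and CTSD (1.55) lie beyond the line on the left, CTSD (-1.66) in the middle and GPNMB (1.58) on the right.

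**Figure D3:**
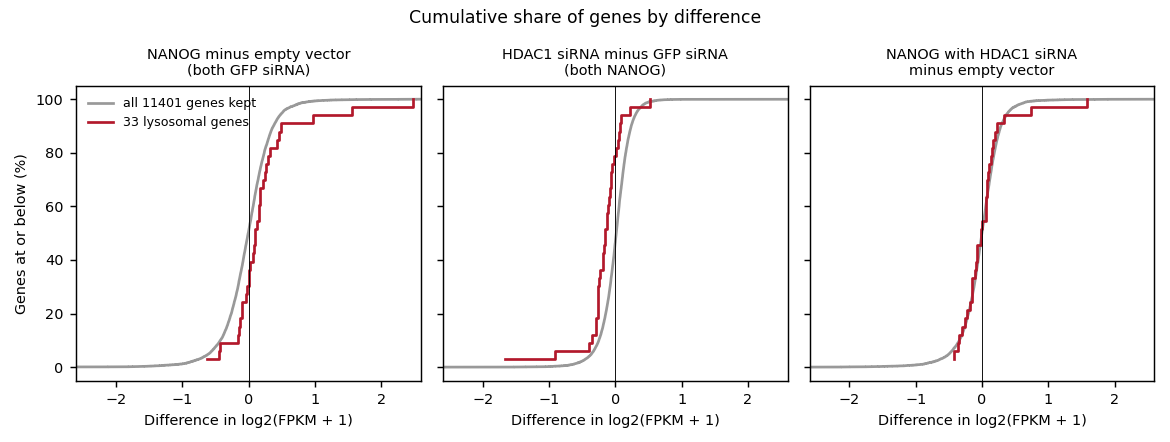
Cumulative share of genes (%) at or below each difference in log2(FPKM + 1), for the 33 lysosomal genes and for all 11401 genes kept, in the 3 comparisons; the x axis ends at 2.6 in either direction. The median of the lysosomal genes lies at 0.10 in the left panel, at -0.15 in the middle and at -0.02 on the right, beside all-gene medians of -0.01, 0.01 and -0.00.

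Among the proteases, all 8 were higher with NANOG than with empty vector, where 49.2% of all genes were higher. Their median difference was 0.38, beside -0.01 for all genes, and CTSA, CTSZ and TPP1 differed by only 0.08, 0.10 and 0.07. The direction was the same under each rescaling that was run, but a rescaling multiplies a whole library by a single factor and is no separate check. CTSD encodes cathepsin D, the main aspartic protease of lysosomes, which is made as a proenzyme and can be secreted. Its level was 111 FPKM with empty vector, 327 FPKM with NANOG and GFP siRNA, and 103 FPKM with NANOG and HDAC1 siRNA. The NANOG library was thus high alone, with the other libraries at nearly the same level, and the log2 differences were 1.55, -1.66 and -0.10 in the 3 comparisons. On the linear scale CTSD was 2.95 times its empty vector level in NANOG cells and 0.93 times with HDAC1 siRNA. Only 18 of the 11401 genes (0.158%) stood at least 2-fold above both other libraries in the NANOG library, among them HDAC1 itself; of the lysosomal genes CTSD alone did so. Of the 2123 exonic bases of CTSD in GENCODE release 29, 1166 are shared with a protein-coding model on the same strand, so fragments of either cannot be told apart there. No symbol in the files was matched to that model.

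CTSL1 encodes cathepsin L, a cysteine endopeptidase. Its level was 46.6 FPKM with empty vector, 92.4 FPKM with NANOG and GFP siRNA, and 78.2 FPKM after HDAC1 siRNA, so both NANOG libraries were above the empty vector library. The differences were 0.97, -0.24 and 0.74, just short of 2-fold in the first comparison and 1.003 when libraries were rescaled to the same upper quartile. The files also list the sequence relatives CTSL2, CTSL3, CTSL1P2 and CTSL1P8, with which fragments may be shared.

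The cysteine proteases CTSC, CTSH and CTSB had smaller differences of the same direction. CTSC, the dipeptidyl peptidase that activates granule serine proteases, was at 93.0, 125 and 104 FPKM. CTSH, an aminopeptidase, was at 14.0, 19.6 and 16.2 FPKM. CTSB, an endopeptidase with carboxypeptidase activity, was at 29.3, 37.0 and 28.9 FPKM. For these genes the NANOG library was highest, with log2 differences of 0.42, 0.46 and 0.33 from empty vector and of -0.26, -0.26 and -0.35 for HDAC1 siRNA against GFP siRNA. The remaining proteases were nearly level across libraries. CTSZ, a carboxypeptidase, was the most abundant protease in the empty vector library at 148 FPKM, with 158 and 145 FPKM in the others. CTSA, the protective protein that stabilises sialidase and beta-galactosidase, was at 126, 133 and 131 FPKM. TPP1, a tripeptidyl peptidase, was at 42.1, 44.2 and 44.5 FPKM, with a difference of 0.01 for HDAC1 siRNA against GFP siRNA. In that comparison 7 of the 8 proteases were lower (median -0.25), where 46.6% of all genes were lower (median 0.01). With the libraries scaled to the same upper quartile, 8 of 8 were lower. Under TPM 5 of 8 were lower (median -0.07), where the median of all genes was 0.18.

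The glycosidases were of middle abundance and none reached 1.5-fold in any comparison. HEXA, the alpha subunit of beta-hexosaminidase, was the most abundant at 69.5, 74.1 and 62.6 FPKM. GLA, the alpha-galactosidase, differed most from empty vector at 32.2, 45.5 and 40.7 FPKM, which gave 0.49 with NANOG and 0.33 with NANOG and HDAC1 siRNA. Both NANOG libraries were thus above the empty vector library for GLA. GLB1, the beta-galactosidase, was at 21.0, 23.0 and 17.3 FPKM, with -0.39 for HDAC1 siRNA against GFP siRNA. GAA, the acid alpha-glucosidase that degrades glycogen, was at 8.20, 7.38 and 5.86 FPKM, and differed by -0.42 between the HDAC1 siRNA and empty vector libraries. MAN2B1, the alpha-mannosidase, was at 10.5, 9.73 and 9.21 FPKM. GUSB, the beta-glucuronidase, was at 23.5, 22.95 and 22.1 FPKM and differed by at most 0.08 in size, although its GUSBP pseudogene copies make its value uncertain. All 6 measured glycosidases were lower with HDAC1 siRNA than with GFP siRNA (median -0.20), where 46.6% of all genes were lower (median 0.01). Under TPM 3 were lower and 3 higher (median -0.02), where the median of all genes was 0.18. NEU1 was listed at 0 throughout, which without counts cannot be told from a failed estimate.

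Of the genes for lipid and sulfate ester breakdown, NPC1 was the single one past 1.5-fold in any comparison. NPC1 is the membrane protein that exports cholesterol from late endosomes and lysosomes. Its level was 21.7 FPKM with empty vector, 13.6 FPKM with NANOG and GFP siRNA, and 16.0 FPKM after HDAC1 siRNA, so both NANOG libraries were below the empty vector library, with differences of -0.63, 0.22 and -0.42. NPC2, the soluble partner that hands cholesterol to NPC1, went the other way in the first comparison, at 135, 149.6 and 122 FPKM (0.15, -0.30 and -0.14). NPC1 shares 183 of its 5157 exonic bases with RMC1 on the opposite strand, listed as C18orf8 at 8.20 to 9.38 FPKM.

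PSAP, the most abundant gene of this role, differed by -0.04, -0.26 and -0.30. It was lowest with HDAC1 siRNA. ASAH1, the acid ceramidase, was at 23.8, 28.5 and 23.7 FPKM, highest in the NANOG library. PPT1, a palmitoyl-protein thioesterase, was at 76.0, 88.8 and 83.3 FPKM. ARSA, the arylsulfatase that cleaves sulfatide, was at 6.60, 5.78 and 4.97 FPKM, the lowest of the role. PPT1 shares 1189 of 4351 exonic bases with CAP1 on the opposite strand, which stood at 126 to 164 FPKM; how the authors counted strand is not given in the sources used here. In all, 15 of the 34 genes share exonic bases with another gene of that annotation, and 8 do so with a gene whose symbol is in the files.

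GPNMB was the gene with the largest difference among the membrane proteins and among all 33. It encodes a transmembrane glycoprotein of melanosomes and lysosomes that is best known from macrophages, melanocytes and osteoclasts, and it is a known target of MITF and TFE3. Its level was 4.003 FPKM with empty vector, 27.0 FPKM with NANOG and GFP siRNA, and 13.9 FPKM with NANOG and HDAC1 siRNA. All 3 libraries were apart from each other, with HDAC1 siRNA between the others. The differences were 2.48, -0.91 and 1.58, or 6.74 times the empty vector level with NANOG and 3.48 times with NANOG and HDAC1 siRNA. Its place among all genes kept moved from percentile 21.2 to 72.6 and 54.2. Markers of macrophages were low in all libraries, with 1 of 9 (CSF1R, 3.10 to 4.52 FPKM) at a mean of at least 1 FPKM; their sum was 4.83, 3.54 and 4.24 FPKM, and TYROBP, MRC1 and MSR1 were at 0 in all 3. Of the melanocyte markers, 0 of the 6 listed reached a mean of 1 FPKM; their sum was 1.30, 0.835 and 0.974 FPKM, with TYR and DCT at 0 in all 3. Fibroblast markers summed to 4.04, 4.80 and 2.76 FPKM over 7 genes, with COL1A1 the sole one at a mean of 1 FPKM, and endothelial markers to 0.432, 0.515 and 0.574 FPKM over 4.

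The other membrane protein genes stayed within 1.5-fold in all 3 comparisons. LAMP1, the abundant glycoprotein of the lysosomal limiting membrane with 6 E-boxes in its promoter window, was at 199, 200.3 and 178 FPKM. LAMP2, needed for fusion with autophagosomes, was at 52.5, 59.5 and 54.5 FPKM. CD68, a LAMP family protein typical of macrophages, was at 50.7, 61.2 and 53.5 FPKM. Of the 1878 exonic bases of CD68, 1789 are shared with a processed transcript on the same strand, so fragments of either cannot be told apart there. For LAMP2 and CD68 the NANOG library was highest, by 0.18 and 0.27 over empty vector. SCARB2, the receptor that brings glucocerebrosidase to lysosomes, was at 18.3, 17.0 and 15.6 FPKM. CLN3, a membrane protein mutated in juvenile Batten disease, was at 13.3, 9.43 and 10.05 FPKM, so both NANOG libraries were below the empty vector library (-0.45 and -0.37). CD63 differed by -0.15, 0.07 and -0.08, and MCOLN1 by 0.16, -0.06 and 0.10.

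The 4 proton pump genes stayed within 1.5-fold in all 3 comparisons. ATP6V0D1, of the membrane sector, was at 112, 114 and 117 FPKM, and ATP6AP1, an accessory protein, at 96.1, 96.9 and 91.3 FPKM. ATP6V1A, the catalytic subunit, was at 19.1, 23.7 and 21.2 FPKM. ATP6V1H, a regulatory subunit, was at 27.2, 30.6 and 31.8 FPKM. The largest difference of the group was 0.30 for ATP6V1A with NANOG. All 4 were above empty vector with NANOG, as were 49.2% of all genes. Under TPM 2 of 4 were so (median 0.05), where the median of all genes was -0.05.

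TFEB, the regulator of the lysosomal programme, was lower in the NANOG library than in the others, with differences of -0.43, 0.52 and 0.09. At this level, near the limit of 1 FPKM, the added 1 FPKM shrinks the difference: its HDAC1 siRNA value was 1.92 times its NANOG value. With 0.1 FPKM added instead, the differences of TFEB were -0.74, 0.87 and 0.13, past 1.5-fold in the first and second comparisons. The counts at 1.5-fold given above, made with 1 FPKM added, leave it out.

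The 9 genes with an E-box in a promoter window and the 17 without one were set side by side. With an E-box, the 8 measured genes had median differences of 0.02, -0.04 and -0.09 in the 3 comparisons, and CTSD was the sole gene among them at least 2-fold apart. Without one, the 17 genes had medians of 0.13, -0.12 and 0.08, with GPNMB at least 2-fold above empty vector in both comparisons with it. The medians of all genes were -0.01, 0.01 and -0.00. Of all genes, 0.675% were at least 2-fold higher in the first comparison, 0.211% lower in the second and 0.368% higher in the third. Whether the small sets with and without an E-box differ was not tested. Apart from CTSD, the measured genes with an E-box differed from empty vector with NANOG by between -0.45 (CLN3) and 0.16 (MCOLN1). Apart from GPNMB, the genes with an M-box differed in that comparison by between -0.15 (CD63) and 0.22 (PPT1), with TPP1 at 0.07.

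Summed over the 34 genes, the level was 2362 FPKM in empty vector cells, 2731 FPKM in NANOG cells and 2292 FPKM with HDAC1 siRNA, or 0.453%, 0.521% and 0.454% of the FPKM of each library without small RNAs. CTSD alone made up 216 of the 369 FPKM by which the NANOG library exceeded the empty vector library, a share of 58.5%. Without CTSD the sums were 2252, 2405 and 2189 FPKM, 1.07 times the empty vector level in the NANOG library. The 8 proteases summed to 609, 936 and 651 FPKM, and to 498, 609 and 548 FPKM without CTSD. The glycosidases summed to 165, 183 and 158 FPKM, and the genes for lipid and sulfate ester breakdown to 622, 635 and 541 FPKM. The membrane proteins summed to 711, 711 and 678 FPKM and the proton pump genes to 254, 265 and 262 FPKM.

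**Figure D4:**
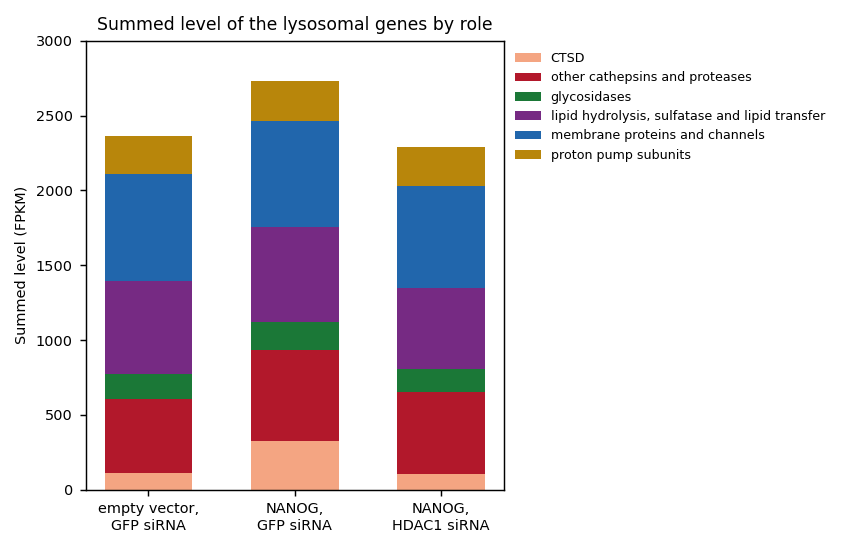
Summed level (FPKM) of the lysosomal genes in each of the 3 libraries, stacked by role with CTSD shown apart from the other proteases; TFEB, at 0.872 to 1.68 FPKM, is too low to be drawn. CTSD takes 4.68%, 12.0% and 4.49% of the stacks. The other proteases stand at 498, 609 and 548 FPKM, and the genes for lipid and sulfate ester breakdown at 622, 635 and 541 FPKM. The layers of glycosidases, membrane proteins and proton pump genes change less in FPKM.

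Further genes of the pathway came from 8 lists of 164 symbols, of which 159 were in the files and 136 were kept. These lists too were written with earlier results of these data known. None of the 136 was 2-fold apart with NANOG, where 0.675% of all genes kept were 2-fold higher and 1.22% lower. At 1.5-fold, 5 of the 136 were higher and 6 lower, beside 3.47% and 5.26% of all genes. The direction counts of these lists are to be read beside the 49.2% of all genes that were higher with NANOG, and the 46.6% that were lower with HDAC1 siRNA against GFP siRNA. Of 13 lysosomal proteases outside the 34, 8 were kept, and these were higher with NANOG in 8 of 8 cases (median 0.42), 2 of them by 1.5-fold, against the all-gene median of -0.01. With no filter on low values, 12 of the 13 were higher and the median was 0.17, and under TPM 7 of the 8 were higher. CPVL, a serine carboxypeptidase, was at 26.4, 40.9 and 33.6 FPKM, CTSF (cathepsin F) at 15.9, 22.5 and 15.6 FPKM, and SCPEP1, another serine carboxypeptidase, at 47.4, 62.2 and 40.4 FPKM. With HDAC1 siRNA against GFP siRNA, 7 of the 8 were lower (median -0.21), SCPEP1 by the most (-0.61). Under TPM 4 of 8 were so (median -0.04), where the median of all genes was 0.18. The NANOG library was the highest for all 3 named genes.

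Of the other hydrolases, 18 of 28 were higher with NANOG (median 0.12) and 21 of 28 lower with HDAC1 siRNA (median -0.09). Under TPM, 12 of the 28 were lower with HDAC1 siRNA (median 0.09, beside 0.18 for all genes). GM2A, the activator protein of ganglioside GM2 breakdown, was at 3.93, 8.74 and 6.74 FPKM (0.98 with NANOG). LIPA, the acid lipase, was at 17.7, 14.1 and 12.4 FPKM, and MAN2B2, a mannosidase, at 9.78, 11.1 and 7.79 FPKM. The other membrane proteins were divided, with 14 of 26 higher with NANOG (median 0.01). Under TPM 12 of 26 were higher (median -0.03, beside -0.05 for all genes). CD9, a tetraspanin related to CD63, was at 264, 164 and 175 FPKM (-0.68 with NANOG), ABCA2, a lipid transporter, at 6.41, 4.28 and 4.29 FPKM, and the sialomucin CD164 at 46.1, 58.6 and 41.4 FPKM. The other 16 proton pump genes were divided, with 8 higher and 8 lower with NANOG, a median of 0.01 and differences from -0.42 to 0.25. Among the pump genes of at least 5 FPKM, ATP6V1D differed most (53.5, 42.7 and 45.3 FPKM), followed by ATP6V0E1 (145, 173 and 139.5 FPKM) and ATP6V1F (133, 147 and 159.7 FPKM).

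Of 9 genes that tag and sort lysosomal enzymes, 6 were lower with NANOG (median -0.21). IGF2R, the large mannose 6-phosphate receptor, was at 28.8, 20.6 and 22.1 FPKM, whereas GNPTG, a subunit of the phosphotransferase that makes the tag, was at 19.6, 25.3 and 17.1 FPKM and NAGPA, the enzyme that uncovers it, at 5.46, 7.43 and 6.52 FPKM. Among the TFEB relatives and genes of mTORC1 control at the lysosome, 10 of 19 were higher with NANOG (median 0.00). Under TPM 8 of 19 were higher (median -0.04, beside -0.05 for all genes). TFE3 was at 39.7, 58.9 and 37.9 FPKM, high in the NANOG library alone (0.56, -0.62 and -0.07). RRAGA, a Rag GTPase that brings mTORC1 to lysosomes, was at 97.3, 57.3 and 58.9 FPKM, below empty vector in both NANOG libraries. AKT1S1, an mTORC1 inhibitor, was at 47.2, 52.9 and 41.0 FPKM. MITF, named after its values were seen, was at 0.51 to 0.74 FPKM.

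The autophagy list had 10 of 25 genes higher with NANOG (median -0.12). SQSTM1, the cargo receptor p62, was at 352, 696 and 581 FPKM (0.98, -0.26 and 0.72), above empty vector in both NANOG libraries. ATG9A, a membrane protein that feeds the forming autophagosome, and its paralog ATG9B were below it at 35.4, 20.4 and 22.3 FPKM and at 9.46, 5.19 and 5.79 FPKM. Cystatins inhibit cysteine cathepsins, and 3 of 5 were higher with NANOG (median 0.06). With the filter at a mean of 5 FPKM, 2 of 4 were higher and the median was -0.42. CST6 was at 419, 225 and 295 FPKM and CSTA at 17.1, 8.74 and 7.44 FPKM, both lower in the NANOG libraries. CSTA was the sole gene of the 136 at least 2-fold apart in any comparison (-1.10 for NANOG with HDAC1 siRNA against empty vector). CSTB was at 101, 117 and 117 FPKM.

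**Figure D5:**
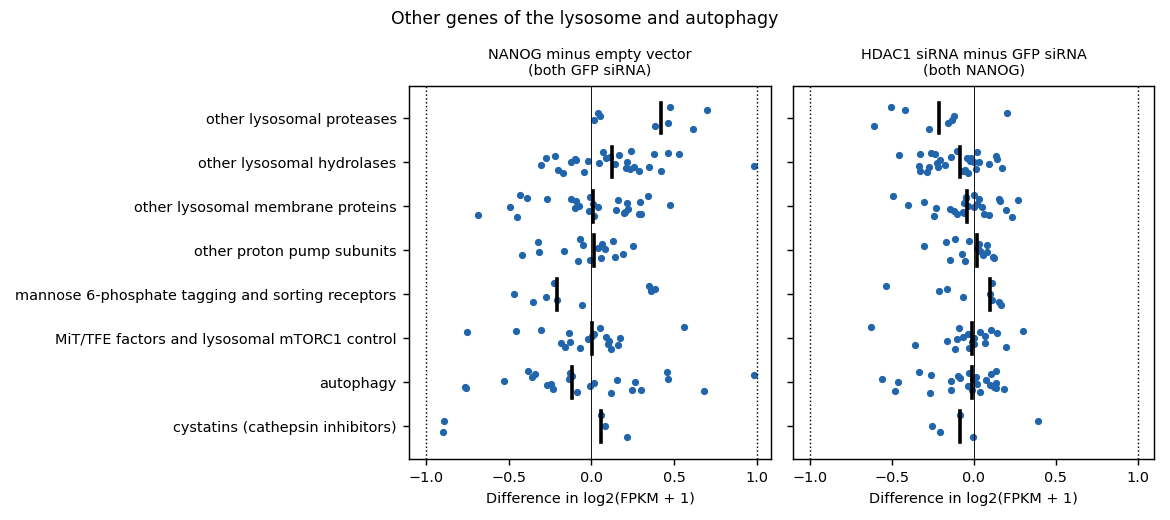
Difference in log2(FPKM + 1) of the 136 further genes by list, for NANOG minus empty vector (left) and HDAC1 siRNA minus GFP siRNA (right); each point is a gene, black bars are list medians and dotted lines mark 2-fold. The bar of the proteases lies at 0.42 on the left and -0.21 on the right, and all points lie within the dotted lines.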

How the data were processed

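Total RNA of 3 CaSki cultures, 1 library per group, was grouped by the titles in the labels. Per the labels' protocols, libraries were made with a stranded total RNA kit from RNA extracted with Trizol. The submitters' processing notes name TopHat2, Cufflinks and hg19, without versions, annotation or strand setting. FPKM values were deposited, 1 per symbol, which a few very abundant RNAs can lower across a library. Sums were 660990, 681947 and 600749 FPKM in the order empty vector, NANOG and HDAC1 siRNA. Small RNA symbols (1621) were left out of the all-gene counts. Differences were taken in log2(FPKM + 1) over 11401 genes whose mean was 1 FPKM or more, with no test. Genes of the further lists are named by a fixed rule: up to 3 per list with the largest difference among genes of at least 5 FPKM in the higher library. The genes, lists and rules were chosen with earlier results of these data known. The steps were tested on simulated data. Alternatives were other pseudocounts, filters, scalings and thresholds. No empty vector culture given HDAC1 siRNA was analysed here. Promoters came from RefSeq (GRCh38.p14) and exon overlaps from GENCODE release 29. Python 3.11.15, numpy 2.4.6, pandas 2.3.3 and matplotlib 3.10.9 were used.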

Additional observations from a re-analysis of the deposited data

How the results depend on the processing

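No paired analysis was possible because each group held 1 library and no test was made, and no replicate could be left out. Pseudocounts of 0.1 and 0.5 FPKM, no filter or a filter at 5 FPKM, small RNAs kept, and the 4 rescalings kept the counts of lysosomal genes at least 2-fold apart within 1.5 times of those reported; rescaling to the same upper quartile gave 3 higher with NANOG, with CTSL1 added at 1.003. A threshold of 1.5-fold gave 1 gene lower with NANOG, 2 lower with HDAC1 siRNA against GFP siRNA, and 2 higher in NANOG cells with HDAC1 siRNA against empty vector. A threshold of 3-fold gave 1 higher with NANOG and 0 higher in the last comparison. TPM moved the medians to 0.024 (HDAC1 siRNA against GFP siRNA) and 0.12 (against empty vector), beside all-gene medians of 0.18 and 0.13. TPM without small RNAs was added after seeing the data. It gave -0.10 and 0.02 in these comparisons, beside all-gene medians of 0.07 and 0.04. The spread between cultures is unknown, so small differences cannot be told from it.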
